A study of Mus musculus with 7 samples.

Results

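The Hox, Meis and Pbx genes described here are 9 of the 35976 gene symbols counted in a lineage-depleted blood progenitor fraction from E14.5 mouse fetal livers. They were chosen by name as haematopoietic HoxA genes (Hoxa5, Hoxa7, Hoxa9 and Hoxa10), HoxB genes (Hoxb2, Hoxb3 and Hoxb4) and their partners Meis1 and Pbx3, and all 9 were found in the count table. The 4 knockout libraries came from CD45.2(+) Vav1-iCre Brd9fl/fl fetuses, in which a recombinase driven by the blood-cell promoter Vav1 removes the loxP-flanked part of Brd9. The 3 control libraries came from CD45.2(+) Brd9fl/fl fetuses, which carry the same flanked alleles without the recombinase. All were C57BL/6, cells were depleted of mature lineages on magnetic columns, and the labels do not say whether a library is 1 fetus or a pool, so p-values measure the spread between libraries, which may be partly technical. Every knockout and no control carried the recombinase, so its own effects and those of Brd9 loss cannot be told apart.

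Hox genes encode homeodomain transcription factors that lie in clusters, with paralogues numbered along each cluster. In blood formation the middle HoxA genes and several HoxB genes are most active in stem and early progenitor cells and are silenced as cells mature. Hox proteins bind DNA weakly alone and cooperate with homeodomain proteins of the TALE class: Pbx proteins pair with Hox proteins, and Meis proteins join them and help keep Pbx proteins in the nucleus. Hoxa9 and Meis1 together drive experimental myeloid leukaemia in mice, and Pbx3 often joins them there. Brd9 is a bromodomain protein that belongs to the non-canonical form of the BAF chromatin remodeller.

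Total counts per library were 18748885 to 21861876 in the knockouts and 21831430 to 23571878 in the controls. Levels are in CPM, the reads of a gene per 1000000 of the scaled library total. Brd9 stood at 8.57, 11.9, 13.2 and 12.2 CPM in the knockouts and at 30.6, 32.2 and 36.5 CPM in the controls, so every library lay on the side of its label. Knockout replicate 3 and control replicate 2 stood apart. In knockout replicate 3 the summed lymphoid markers reached 47.3 CPM, against 6.86 to 8.58 CPM in the other knockouts and 5.16 to 6.91 CPM in the controls. In control replicate 2 the summed erythroid markers were 3228 CPM, against 5181 to 6986 CPM in the knockouts and 5371 and 5559 CPM in the other controls. The fraction also held transcripts of liver cells, with summed hepatocyte markers at 13383 to 23710 CPM in the knockouts and 10476 to 18479 CPM in the controls. Of the 18 stem and progenitor markers none was at 0 over the libraries. In bulk samples, fewer cells of a type and less RNA per cell cannot be told apart.

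None of the 7 members that could be tested was called changed between Brd9 knockout and control libraries. The call was a Benjamini-Hochberg adjusted p under 0.05 in edgeR's quasi-likelihood test over all 14679 tested genes, and 0.559% of those genes passed it. Meis1 and Pbx3 averaged 1.22-fold and 1.25-fold the control level, Hoxa9 1.06-fold, and the 4 Hox genes with the fewest reads among those tested had intervals that reached 1.91-fold or more. At an unadjusted p under 0.05 there were 0 members, against 10.9% of tested genes. DESeq2 called 0 of them, against 2.22% of the genes it adjusted, and the authors' deposited table lists 0 at an adjusted p under 0.05. Knockout and control libraries overlapped for all 9 members, where 11.2% of tested genes had groups that did not overlap. The fitted change was above 0 for 5 of the 7 members and 52.4% of tested genes.

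The promoter windows of Hoxa9, Hoxb4 and Meis1 are shown because these genes, from chromosomes 6 and 11, had the same 3 highest libraries: knockout replicates 2 and 4 and control replicate 2. Each is the 250 bases before the annotated start, 5′ to 3′ on the gene's strand, from RefSeq on GRCm38.p6, with every CG dinucleotide in capitals, since unmethylated CG is the letter pair read by the CXXC domain of the Hox activator Kmt2a. They are chr6:52227371-52227620 on the minus strand for Hoxa9, chr11:96318017-96318266 on the plus strand for Hoxb4 and chr11:19018970-19019219 on the minus strand for Meis1.
Hoxa9: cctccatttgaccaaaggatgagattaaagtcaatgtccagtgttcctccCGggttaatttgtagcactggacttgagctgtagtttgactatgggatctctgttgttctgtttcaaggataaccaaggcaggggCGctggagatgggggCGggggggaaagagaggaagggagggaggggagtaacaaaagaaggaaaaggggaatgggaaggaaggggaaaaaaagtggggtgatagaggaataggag
Hoxb4: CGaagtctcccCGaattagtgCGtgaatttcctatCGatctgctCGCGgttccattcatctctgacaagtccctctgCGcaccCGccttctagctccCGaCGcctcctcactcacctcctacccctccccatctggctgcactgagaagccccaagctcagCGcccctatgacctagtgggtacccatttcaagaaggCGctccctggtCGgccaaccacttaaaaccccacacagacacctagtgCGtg
Meis1: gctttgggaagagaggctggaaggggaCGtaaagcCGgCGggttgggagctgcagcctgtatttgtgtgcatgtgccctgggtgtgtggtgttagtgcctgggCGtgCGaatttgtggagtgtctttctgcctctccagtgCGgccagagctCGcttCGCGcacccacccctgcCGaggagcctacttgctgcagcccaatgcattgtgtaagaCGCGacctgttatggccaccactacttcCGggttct
The windows of Hoxa9, Hoxb4 and Meis1 hold 3, 14 and 13 CG pairs, where the median of 32851 RefSeq promoter windows is 6. Of all those windows 71.0%, 29.4% and 31.5% hold at least as many, so none of the 3 counts is rare. The RefSeq start of Hoxa9 lies inside the longer GENCODE model used for its coordinates. RefSeq windows were matched for 6 of the 9 members (Hoxa5, Hoxa7, Hoxa9, Hoxa10, Hoxb4 and Meis1). The MEIS core TGACAG and the HOX-PBX core TGATNNAT were searched on both strands. Neither was found in these windows, while 15.9% and 7.68% of all windows hold them; this says only that those letters are not in these stretches.

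Hoxa9, the HoxA gene most closely tied to progenitor expansion, was the Hox gene with the most reads. It lies on the minus strand of chromosome 6 from 52223100 to 52231089 (GENCODE M21 on GRCm38, the assembly that mm10 names; all gene coordinates here are from it). Hoxa9 stood at 3.17, 5.33, 3.88 and 5.21 CPM in the knockouts and at 3.09, 6.50 and 2.90 CPM in the controls. Control replicate 2 was the highest of all 7 libraries and the other controls were the lowest, so the knockouts lay between the controls. The means were 4.40 ± 1.05 CPM in the knockouts (SD, n = 4) and 4.16 ± 2.03 CPM in the controls (SD, n = 3). The log2 fold change was 0.08 (SE 0.32; edgeR adjusted p = 0.953), with a 95% interval from 0.639-fold to 1.74-fold. The exact two-sided permutation test over 35 arrangements of the labels gave p = 0.657.

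Hoxa5, Hoxa7 and Hoxa10, the other HoxA members, lie on the same strand within the cluster. Hoxa5 is best known for patterning of the trunk and lung, Hoxa7 is switched on with Hoxa9 in leukaemias with a Kmt2a fusion, and Hoxa10 acts in progenitors of red cells and platelets. Hoxa5 (52201754 to 52204587) stood at 0.546, 1.22, 1.99 and 1.02 CPM in the knockouts and at 0.876, 1.53 and 0.506 CPM in the controls. Its highest library was knockout replicate 3, the one with high lymphoid markers, and the fitted log2 fold change was 0.30 with it and -0.06 without it. Hoxa7 (52214491 to 52221854) stood at 0.983, 1.85, 1.94 and 1.75 CPM in the knockouts and at 0.691, 2.11 and 1.38 CPM in the controls. Hoxa10 (52231197 to 52240854) had 9, 6, 8 and 15 reads in the knockouts and 7, 25 and 3 reads in the controls. The 25 reads of control replicate 2, with an exact Poisson interval of 16.2 to 36.9, lay above the interval of control replicate 3, 0.619 to 8.77; such intervals cover counting error only. The edgeR adjusted p was 0.858 for Hoxa5, 0.867 for Hoxa7 and 0.964 for Hoxa10, with 95% intervals of 0.574 to 2.63, 0.630 to 2.17 and 0.342 to 2.47 in fold change. The direction for Hoxa10 depended on the scale: the fitted log2 fold change was -0.12, and the difference of mean log2 CPM was 0.17.

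Hoxb4, which expands stem cells when overexpressed in mouse bone marrow, was the HoxB member with the most reads. The gene spans 96318267 to 96321638 on the plus strand of chromosome 11, and it stood at 0.874, 0.993, 0.568 and 0.975 CPM in the knockouts and at 0.645, 1.57 and 0.460 CPM in the controls. As with Hoxa9, the knockouts lay among the controls, with control replicate 2 highest. The log2 fold change was -0.08 (SE 0.45; edgeR adjusted p = 0.968; 95% interval 0.469-fold to 1.91-fold), and the difference of mean log2 CPM had the opposite sign, 0.08. Hoxb3, which like Hoxb4 is active in blood stem cells, and Hoxb2, best known for hindbrain patterning, lie next to it. Hoxb3 (96323326 to 96347930) and Hoxb2 (96350525 to 96354012) had 53 and 26 reads in all and did not pass the filter on low counts. Hoxb3 had 3, 17, 5 and 5 reads in the knockouts and 7, 14 and 2 in the controls, while Hoxb2 had 4, 1, 4 and 5 reads in the knockouts and 4, 4 and 4 in the controls. In an edgeR fit with no filter, in which 0.937% of 24342 genes were called, Hoxb3 had a log2 fold change of 0.09 (adjusted p = 0.974; 0.383-fold to 2.96-fold) and Hoxb2 of -0.05 (adjusted p = 0.985; 0.311-fold to 3.01-fold). A change of 2-fold in either direction lies inside both intervals and was not detectable at this depth.

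Meis1, the TALE partner that binds DNA with Hoxa9, had the most reads of all 9 genes. It lies on the minus strand of chromosome 11 from 18879817 to 19018985 and had 597, 875, 558 and 899 reads in the knockouts and 511, 991 and 504 reads in the controls. Meis1 stood at 32.6, 39.5, 26.4 and 43.8 CPM in the knockouts and at 23.5, 41.0 and 23.2 CPM in the controls. All 4 knockouts lay above control replicates 1 and 3, and 3 of them lay below control replicate 2. The means were 35.6 ± 7.7 CPM in the knockouts (SD, n = 4) and 29.2 ± 10.2 CPM in the controls (SD, n = 3), a log2 fold change of 0.28 (SE 0.23; edgeR adjusted p = 0.707; 95% interval 0.846-fold to 1.75-fold). The exact permutation test gave p = 0.314.

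Pbx3, a Pbx partner of Hoxa9 in leukaemia models, differed from the other members in its order of libraries. It lies on the minus strand of chromosome 2 from 34171457 to 34373142 and stood at 19.7, 19.6, 17.3 and 18.1 CPM in the knockouts and at 17.9, 12.0 and 14.9 CPM in the controls. Here control replicate 2 was the lowest of the 7 libraries, and only control replicate 1 overlapped the knockouts, lying above knockout replicate 3. The means were 18.7 ± 1.2 CPM in the knockouts (SD, n = 4) and 15.0 ± 3.0 CPM in the controls (SD, n = 3). The log2 fold change of 0.32 (SE 0.15) had the smallest unadjusted p of the members, 0.057, and an edgeR adjusted p = 0.485, with a 95% interval from 0.992-fold to 1.57-fold. The exact permutation test gave p = 0.0571, and the authors' deposited table gives Pbx3 an unadjusted p = 0.0493 and an adjusted p = 0.520.

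**Figure D1:**
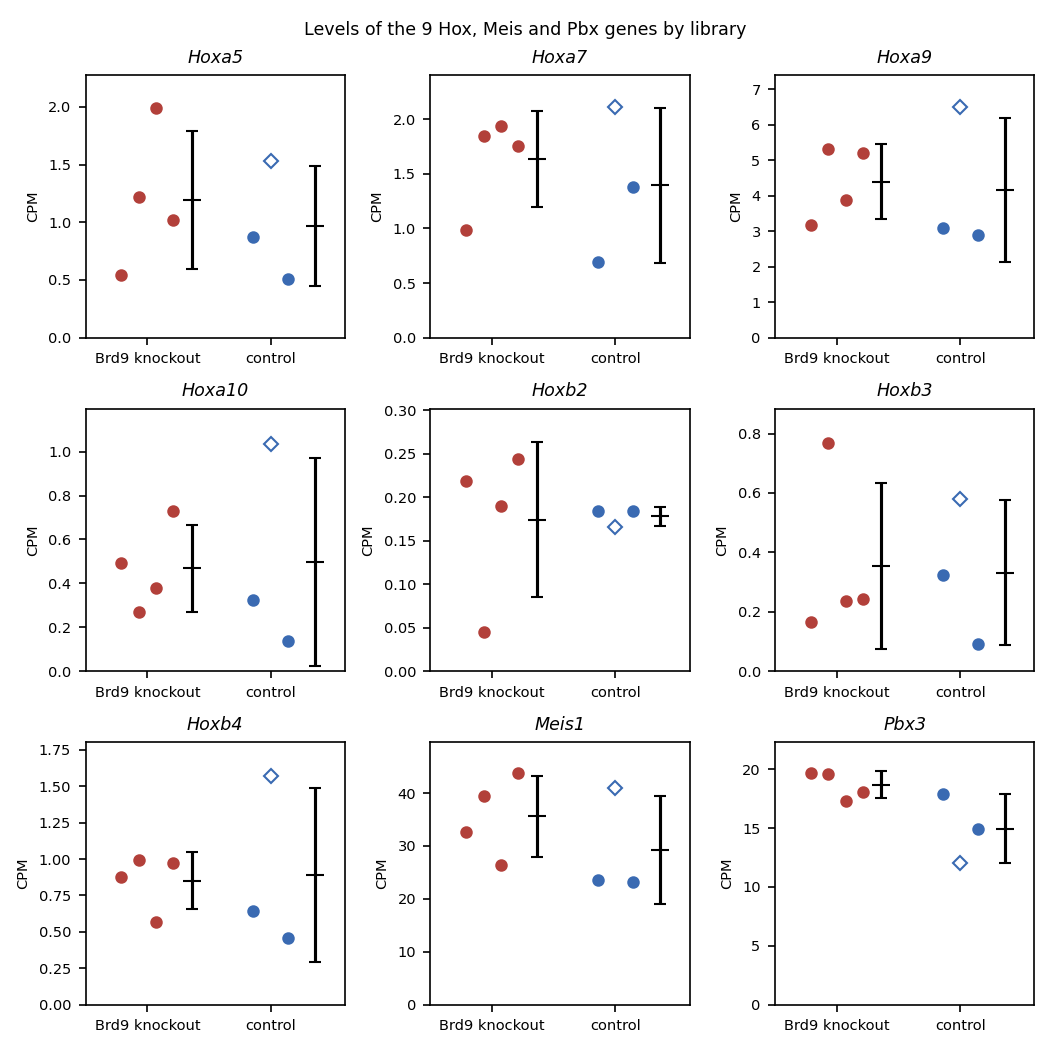
Level of each of the 9 genes in CPM by library, with 4 Brd9 knockout libraries in red and 3 control libraries in blue; the open diamond is control replicate 2, and the bar beside each group is its mean and SD. Control replicate 2 is the highest control for 7 of the 9 genes and the lowest for Pbx3, where it stands at 12.0 CPM.

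Control replicate 2 stood apart from the other controls for most members. Over the mean of the other controls it stood 2.17-fold for Hoxa9, 2.22-fold for Hoxa5, 2.04-fold for Hoxa7, 4.49-fold for Hoxa10, 2.85-fold for Hoxb4 and 1.76-fold for Meis1, against 0.731-fold for Pbx3. It was the highest of all 7 libraries for 4 of the 7 tested members, against 22.7% of tested genes. It was the highest control for 6 of the 7 tested members, and 40.2% of all tested genes had it highest; 6 of 7 exceeded 1.5-fold, against 10.4% of all tested genes. The same library was the highest control for 10 of 10 tested megakaryocyte markers, 11 of 11 endothelial markers, 14 of 15 neutrophil markers, 13 of 17 stem and progenitor markers and 0 of 15 erythroid markers. Its summed megakaryocyte markers were 1428 CPM, against 767 and 829 CPM in the other controls, and its summed endothelial markers 277 CPM, against 166 and 186 CPM. Its summed neutrophil markers were 8901 CPM, against 4996 and 7159 CPM in the other controls. No marker of these 5 lists was at 0 over the libraries. The part of these cell types in the members' levels was not tested.

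Leaving out control replicate 2 moved the tested Hox genes and Meis1 up relative to the controls and Pbx3 down. For the untested members, the difference of mean log2 CPM went from 0.09 to 0.51 for Hoxb3 and from -0.10 to -0.13 for Hoxb2. All 7 tested members were then higher in the knockouts, where 53.6% of all tested genes were, and their median log2 fold change was 0.62, against 0.23 with all libraries; the medians of all genes were 0.02 and 0.01. Control replicate 2 was the highest control for 6 of the 7 tested members, against 40.2% of all tested genes. Leaving it out raises the fold changes of those 6 by arithmetic, so the values over all genes are not a like background. Because the members share the library that was left out, these 7 directions are not separate observations. Meis1 reached a log2 fold change of 0.61 (1.52-fold, 1.12 to 2.07), with an unadjusted p = 0.0127 in edgeR, the 1 member under 0.05, where 8.0% of tested genes were, and an adjusted p = 0.409. The log2 fold change was 0.56 for Hoxa9 (adjusted p = 0.697), 0.79 for Hoxa5 (0.845), 0.66 for Hoxa7 (0.820), 0.997 for Hoxa10 (0.819), 0.62 for Hoxb4 (0.848) and 0.18 for Pbx3 (0.866). No member passed, where 0.328% of 14955 tested genes did. The exact permutation p, which cannot fall below 0.0667 over 15 arrangements, was 0.133 for Hoxa9 and Meis1.

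**Figure D2:**
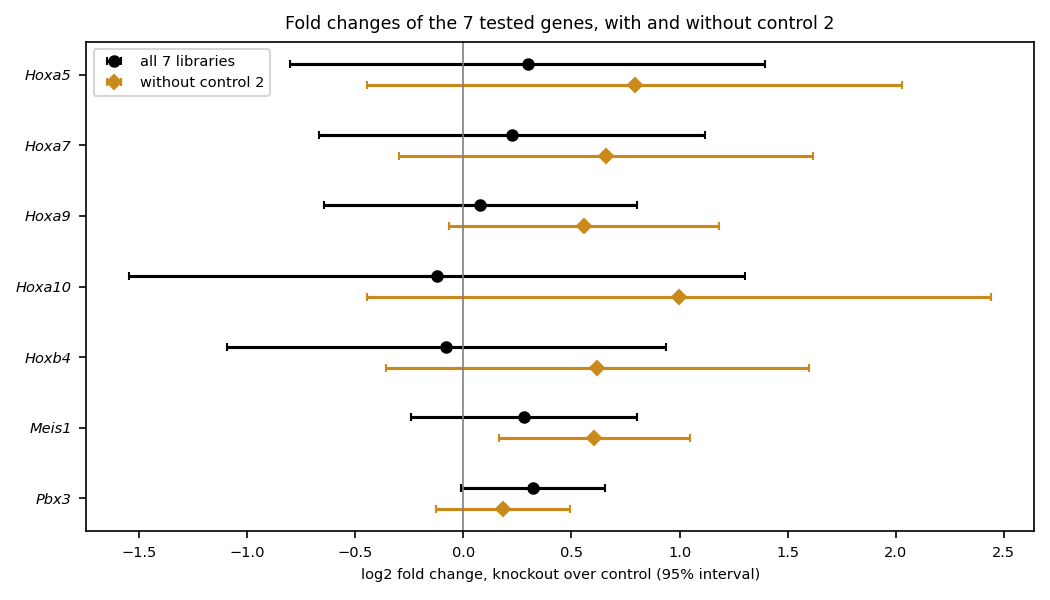
Log2 fold change of knockout over control with its 95% interval for the 7 tested genes, with all 7 libraries (black circles) and without control replicate 2 (orange diamonds). Without that library Hoxa10 and Hoxb4 stand at 0.997 and 0.62, against -0.12 and -0.08 with it, and Pbx3 alone comes down, to 0.18.

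Set along the clusters, HoxA reads fell most on Hoxa9, Hoxa7 and Hoxa5, and HoxB reads on Hoxb4. Hoxa3, which is not a member, had 143 reads in all, against 132 for Hoxb4. Levels per length, as CPM per kilobase of merged exon, were 0.788 ± 0.188 in the knockouts and 0.746 ± 0.363 in the controls for Hoxa9 (SD, n = 4 and 3). Hoxa5 had 0.636 ± 0.320 in the knockouts and 0.517 ± 0.277 in the controls, and Hoxa7 0.568 ± 0.153 and 0.485 ± 0.247. The group spreads of the 3 genes overlapped, though Hoxa9 lay above Hoxa7 in every library. Hoxa5 lay above Hoxa9 in knockout replicate 3, at 1.06 against 0.696. Hoxa10 lay lower, at 0.143 ± 0.060 in the knockouts and 0.152 ± 0.145 in the controls. Among HoxB members Hoxb4 had 0.332 ± 0.077 in the knockouts and 0.348 ± 0.232 in the controls. It lay above Hoxb3 (0.083 ± 0.066 and 0.078 ± 0.057) and Hoxb2 (0.050 ± 0.025 and 0.051 ± 0.003), whose libraries overlapped. Meis1 (3.38 ± 0.73 in the knockouts, 2.78 ± 0.97 in the controls) and Pbx3 (3.06 ± 0.19 and 2.45 ± 0.48) stood above every Hox member, and on this length scale they did not differ from each other beyond their spread.

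The order of the members depends on the length used. The second scale divided the same whole-gene CPM by the length of coding sequence, without removing reads from untranslated exons. It therefore raises genes with much exon sequence outside the coding part and is not a level of coding reads. In CPM per kilobase of coding sequence, Meis1 averaged 22.6 in the knockouts and 18.5 in the controls, further above Pbx3, at 14.1 and 11.3. Per kilobase of coding sequence, Hoxa9 averaged 5.41 in the knockouts and 5.12 in the controls, Hoxa7 1.68 and 1.43, Hoxa5 1.47 and 1.20, and Hoxb4 1.14 and 1.19. Exons of other genes share 52.9% of the exon bases of Hoxb3, 27.3% of Hoxb2, 20.4% of Hoxa7 and 18.3% of Meis1, mostly antisense transcripts (Hoxb3os, Hoxaas3 and Gm16140), with Gm37818 on the same strand as Meis1. The strand setting of the counting is not given in the sources used here, so reads of a gene and of its antisense partner may not be separated.

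**Figure D3:**
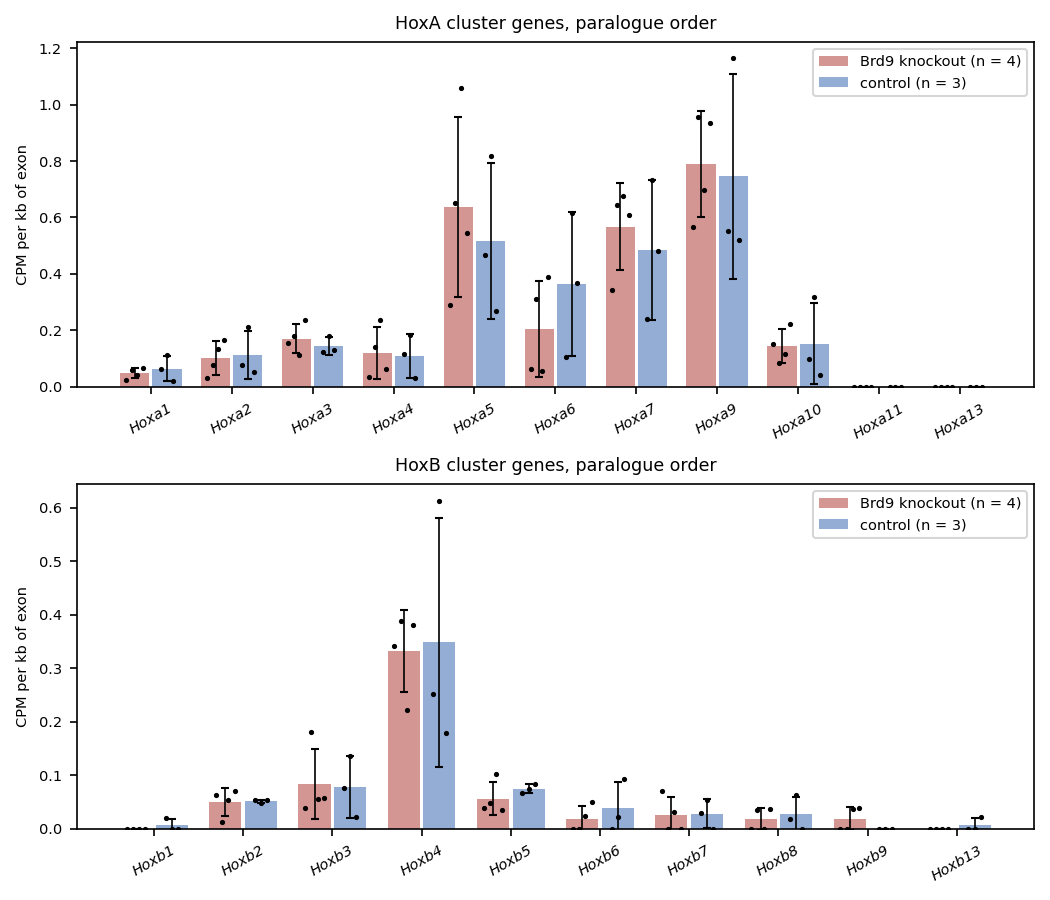
CPM per kilobase of merged exon for the 11 HoxA and 10 HoxB genes in the order of their paralogue numbers; bars are group means, error bars SD, and points single libraries, with knockouts left of controls. The means of Hoxa5, Hoxa7 and Hoxa9 are the highest of the HoxA genes in both groups, with the control libraries of Hoxa6 overlapping those of Hoxa5 and Hoxa7, and the mean of Hoxb4 is the highest of the HoxB genes.

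The make-up of the Hox transcripts was alike in range in both groups. HoxA genes gave 77.9 to 84.3% of all Hox reads in the knockouts and 78.9 to 83.0% in the controls; with 149 to 279 Hox reads per knockout and 171 to 399 per control, the widest exact binomial interval ran from 70.3 to 84.2%. Hoxa9 gave 50.0, 50.6, 40.4 and 47.3% of HoxA reads in the knockouts and 49.3, 47.4 and 46.7% in the controls. Over all libraries the 39 Hox genes had 1682 reads, of which 1380 were HoxA, 267 HoxB and 35 HoxC or HoxD, and 10 of 18 HoxC and HoxD genes had no read. Hoxa11 and Hoxa13, at the far end of the HoxA cluster, had none. Of the Hox genes outside the members only Hoxa3 passed the filter, with a log2 fold change of 0.24 (edgeR adjusted p = 0.842).

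Hoxa9 was also set against its partner Meis1 within each library. There were 9.72, 13.5, 14.7 and 11.9 Hoxa9 reads per 100 Meis1 reads in the knockouts and 13.1, 15.8 and 12.5 in the controls (exact permutation p = 0.429; 0.643 adjusted over the 3 ratios computed). The groups overlapped.

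By likeness of profile over the 7 libraries, measured as the root mean square difference of z-scored log2 CPM, the genes nearest to Hoxa9 were Fam102a (0.142), Fam129a (0.190) and Adgrg1 (0.228). Those nearest to Meis1 were Fbxo11 (0.161), Kctd9 (0.207) and Zfp574 (0.246). The median over the 10049 genes compared was 1.44 for Hoxa9 and 1.43 for Meis1. Hoxa9 and Meis1 lay 0.512 apart, Hoxb4 lay 0.555 from Hoxa9 and 0.502 from Meis1, and Pbx3 lay 1.64 and 1.45 from them. Hoxa5, Hoxa7 and Hoxa10 lay 0.823, 0.697 and 0.788 from Hoxa9, and 1.16, 0.923 and 0.755 from Meis1. The nearest genes are nearest of many over few libraries, and all these values describe these libraries only.

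Among 13 other TALE genes, 8 were tested and none reached an adjusted p under 0.05 with edgeR or with DESeq2. At an unadjusted p under 0.05 there were 1 higher and 1 lower, where 3.95% and 6.90% of all tested genes were, with a median log2 fold change of 0.01. Meis3, a paralogue of Meis1, had 10, 23, 21 and 11 reads in the knockouts and 2, 5 and 6 reads in the controls. Every knockout lay above every control, which 4.38% of tested genes showed, with a log2 fold change of 1.996 (SE 0.49; edgeR adjusted p = 0.145). Pbx2 stood at 93.1, 105, 112 and 102 CPM in the knockouts and at 113, 134 and 119 CPM in the controls. Its groups did not overlap either, as for 6.81% of tested genes in that direction, with a log2 fold change of -0.25 (SE 0.09; edgeR adjusted p = 0.342). Per length, in CPM per kilobase of merged exon, Pbx2 stood at 28.3 ± 2.2 in the knockouts and 33.6 ± 3.0 in the controls (SD, n = 4 and 3). Pknox1 and Tgif1 had log2 fold changes of 0.12 and -0.15 (adjusted p = 0.717 and 0.720).

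A list of 20 genes that act on Hox loci held mostly the Kmt2a complex, its fusion partners and histone acetyltransferase subunits. Of these 17 were tested, and 0 passed in edgeR and 0 by DESeq2. At an unadjusted p under 0.05 there were 0 higher and 2 lower, where 3.95% and 6.90% of all tested genes were. Knockouts lay wholly below controls for 3 of the 17, as for 6.81% of tested genes, and wholly above for 0. The median log2 fold change was -0.03. Aff1, a scaffold of the super elongation complex, had 86.1 ± 18.0 CPM in the knockouts and 116 ± 9 CPM in the controls (SD, n = 4 and 3; edgeR adjusted p = 0.350). Mllt10, a cofactor of the methyltransferase Dot1l, and the acetyltransferase subunit genes Brpf1 and Kat6a had log2 fold changes of -0.26, -0.15 and -0.26 (edgeR adjusted p = 0.451, 0.484 and 0.615).

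Of 20 genes reported as targets of Hoxa9 or Meis1, 18 were tested and 0 passed in edgeR, with a median log2 fold change of -0.08. At an unadjusted p under 0.05 there were 1 higher and 2 lower, where 3.95% and 6.90% of all tested genes were. DESeq2 called 1 lower, where it called 1.90% of its genes lower. That gene was Cdk6, a cyclin-dependent kinase of progenitors, at 157, 171, 145 and 189 CPM in the knockouts and 223, 287 and 213 CPM in the controls. Its groups did not overlap, the log2 fold change was -0.54 (SE 0.13), and the adjusted p was 0.114 in edgeR, 0.032 in the edgeR fit with no filter and 0.0094 in DESeq2. Without control replicate 2 it was 0.317 in edgeR, with a log2 fold change of -0.40. Sox4, a transcription factor of progenitors, had 21.5 ± 5.0 CPM in the knockouts and 32.2 ± 10.7 CPM in the controls, and Myb 293 ± 36 and 349 ± 42 CPM (SD, n = 4 and 3; edgeR adjusted p = 0.418 and 0.489). Mecom, a stem cell transcription factor, had 3.49 ± 0.76 CPM in the knockouts and 2.19 ± 0.81 CPM in the controls (edgeR adjusted p = 0.453). Without control replicate 2 the log2 fold change of Mecom was 1.01, against 0.67 with all libraries, that of Sox4 was -0.29, against -0.58, and that of Myb was -0.15, against -0.25.

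The markers of stem and progenitor cells held no gene that passed in edgeR. Of 17 tested there were 3 higher and 2 lower at an unadjusted p under 0.05, where 3.95% and 6.90% of all tested genes were. Kit, the stem cell factor receptor, had 195 ± 24 CPM in the knockouts and 294 ± 24 CPM in the controls (SD, n = 4 and 3), with an adjusted p of 0.0558 in edgeR, 0.011 in the edgeR fit with no filter and 0.00027 in DESeq2, the 1 lower call of DESeq2 in the list. Gata2, a transcription factor of stem cells, stood at 68.2, 95.4, 92.4 and 96.0 CPM in the knockouts and at 51.8, 88.5 and 47.0 CPM in the controls, with control replicate 2 again the highest control (edgeR adjusted p = 0.451, and 0.0764 without that library). Slamf1, a surface marker of stem cells, averaged 5.58 ± 2.94 CPM in the knockouts and 10.1 ± 2.4 CPM in the controls (edgeR adjusted p = 0.438). Thy1, which T cells also carry, had 13.03 CPM in knockout replicate 3 and 0.780 to 1.04 CPM in the other knockouts, against 0.415 to 0.874 CPM in the controls. The summed markers ran from 889 to 1410 CPM in the knockouts and from 1025 to 1176 CPM in the controls. In the same libraries, where 0.545% of tested genes fell, 7 of 15 tested neutrophil markers fell and their sum was 1669 to 3828 CPM in the knockouts and 4996 to 8901 CPM in the controls. Summed megakaryocyte markers were 517 to 1291 CPM in the knockouts and 767 to 1428 CPM in the controls, and summed endothelial markers 151 to 200 and 166 to 277 CPM. In edgeR 0 of 15 erythroid markers passed, while 6 were higher and 2 lower unadjusted, against 3.95% and 6.90% of all tested genes. DESeq2 called 4 erythroid markers higher and 2 lower, against 2.22% of its genes in either direction. In edgeR there also passed 0 of 10 megakaryocyte markers and 0 of 11 endothelial markers (0 higher and 2 lower unadjusted in each list; 1 lower by DESeq2 in each). Likewise 0 of 11 hepatocyte and 0 of 10 stromal markers passed (0 unadjusted, 0 by DESeq2), and 0 of 3 tested lymphoid markers (1 higher unadjusted and by DESeq2). Of 14 monocyte and macrophage markers, F13a1 fell in edgeR, while 9 were lower and 0 higher at an unadjusted p under 0.05 and DESeq2 called 7 lower. Their median log2 fold change was -1.02, and their sum was 101 to 196 CPM in the knockouts and 397 to 410 CPM in the controls. The part of these cell types in the levels of the members was not tested.

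**Figure D4:**
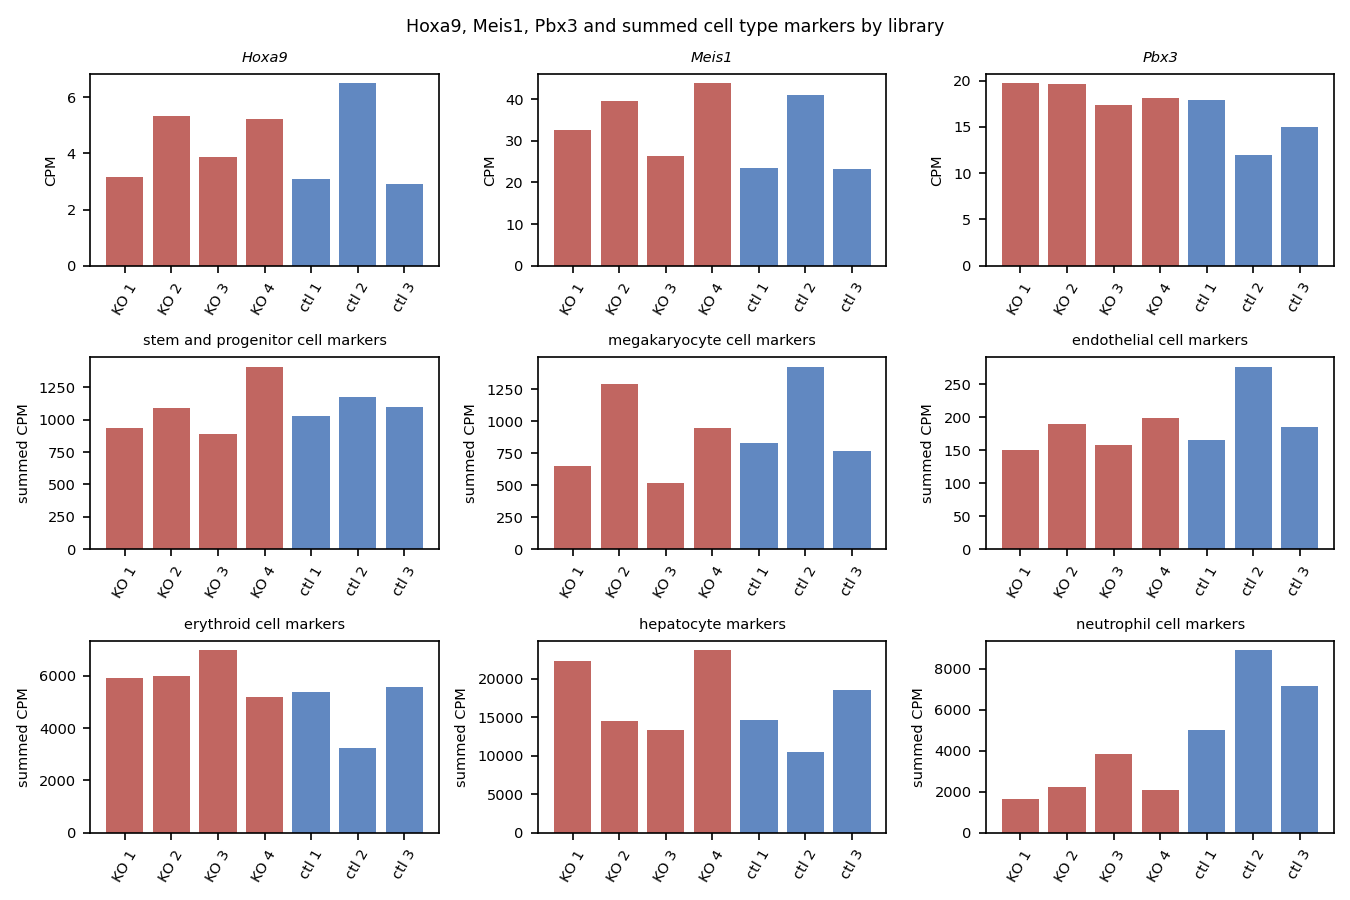
Hoxa9, Meis1 and Pbx3 in CPM, and summed CPM of 6 marker lists, in each library (KO, Brd9 knockout; ctl, control). Control replicate 2 is high for Hoxa9, Meis1 and the megakaryocyte, endothelial and neutrophil sums and low for Pbx3 and the erythroid and hepatocyte sums; the neutrophil sum is 1669 to 3828 CPM in the knockouts, below every control.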

How the data were processed

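RNA was measured by polyA sequencing (TruSeq Stranded mRNA) of lineage-negative fetal liver cells in 4 knockout and 3 control libraries. The submitters' processing notes name HISAT2, featureCounts, DESeq2 and mm10; the authors deposited raw read counts per gene symbol. Their deposited DESeq2 table holds log2 fold changes, p-values with adjusted p-values, a test score and a normalised signal, of which fold changes and p-values of the members were read. Their versions, annotation and strand setting are unknown here.

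Genes were kept with filterByExpr (minimum count 10), scaled by TMM and tested with edgeR 4.0.16 (R 4.3.3; glmQLFit, glmQLFTest) on group alone, with p-values adjusted over all genes. The fitting code was tested on simulated data. CPM used TMM-scaled totals, log2 CPM a prior count of 2, intervals 95%. Lengths are merged GENCODE M21 exons. Within groups, the chi-square per degree of freedom between libraries was 9.00 to 45.6, so none was the same library sequenced again. Whether any libraries shared a pool of cells cannot be told from it. The members and lists were chosen with earlier results of these data known. All members are named; of each pathway list and the stem cell list, named genes are the up to 4 with the smallest p, and 3 nearest profiles each for Hoxa9 and Meis1. Some results are not reported here. The ratios, the coding-length levels, the CG marking (after the motif searches found no match) and the comparison of marker sums in control replicate 2 were chosen after the values were seen. From the other marker lists, which serve for sums, few genes are named. Alternatives were DESeq2 1.42.0, limma-voom (limma 3.58.1), DESeq2 size factors, total counts, other filters, robust dispersion, a replicate block and leaving out each library.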

Additional observations from a re-analysis of the deposited data

Results flagged for a closer look

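Chance alone sets about 1 in 20 groups apart by the gap test used here, and 7 of 82 groups of 4 knockouts were. Hoxb3 stood at 0.768 CPM in knockout replicate 2, from 17 reads, against 0.164 to 0.244 CPM in the other knockouts. Knockout replicate 3 was far above the other knockouts in lymphoid transcripts: the summed lymphoid markers were 47.3 CPM there against 6.86 to 8.58 CPM, Rag1 16.1 against 0.328 to 0.975 CPM, Tcf7 17.2 against 3.84 to 5.84 CPM, and Thy1 13.03 against 0.780 to 1.04 CPM. In that library Hoxa5 was highest of all 7, and Hoxa9 and Meis1 lay within the range of the other knockouts or below it. Acta2 stood at 1.95 CPM in knockout replicate 4, against 0.758 to 0.858 CPM in the others. Gata2, a stem cell transcription factor, stood at 68.2 CPM in knockout replicate 1, against 92.4 to 96.0 CPM in the others. The cause of these values was not tested.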

How the results depend on the processing

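No member was called under any alternative run. The 54 member values under alternatives that kept all libraries held their direction except Hoxa10 (0.22) and Hoxb4 (0.077) with limma-voom, and their smallest adjusted p was 0.327; the cause was not tested. Leaving out single libraries turned 11 of 47 values: Hoxa5 ranged from -0.062 to 0.79, Hoxa7 from -0.091 to 0.66, Hoxa9 from -0.12 to 0.56, Hoxa10 from -0.55 to 0.997 in the 5 fits where it passed the filter and Hoxb4 from -0.38 to 0.62, while Meis1 (0.14 to 0.61) and Pbx3 (0.18 to 0.47) stayed positive. For Hoxa5, Hoxa7, Hoxa9, Hoxa10, Hoxb4 and Meis1 the highest value came without control replicate 2. The number of genes changed, 82, was 228 with no filter, 382 with DESeq2 and 20 to 120 when 1 library was left out, with 49 and 20 without control replicates 2 and 3 and 51, 21 and 37 without knockout replicates 1, 2 and 4. Deviations of same-numbered libraries correlated at 0.17, -0.02 and -0.01, and pairs with different numbers ran from -0.19 to 0.13. The highest value of all pairs was thus that of control replicate 1 with knockout replicate 1. Whether the numbers mark pairs cannot be told from these values. The replicate block gave 121 genes and 0 members. Levels per coding length in place of exon length, with the same whole-gene CPM and chosen after seeing the data, put Hoxa7 above Hoxa5. A prior count of 0.5 turned 0 of the 9 log2 CPM differences. Hoxb2, Hoxb3 and Hoxa10 rest on 26, 53 and 73 reads in all.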
